A study of Arabidopsis thaliana with 4 samples.

Results

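The 4 genes described here act in the N-hydroxypipecolic acid pathway of Arabidopsis thaliana: ALD1 (AT2G13810), SARD4 (AT5G52810), FMO1 (AT1G19250) and UGT76B1 (AT3G11340). They are 4 of 29030 loci with a probe on the array and were found on the array by their locus identifiers. UGT76B1 was read by 2 probes and each of the other 3 genes by 1 probe. RNA came from plants of the laboratory ecotype Col0 grown at the top of square plates held upright. The exposed plants shared the air space with Pseudomonas syringae DC3000, a bacterial leaf pathogen placed in the lower part, and the control plants were on plates without bacteria. The design question is how plants respond to microbial volatile compounds. The exposure lasted 12 hours after 8 days of growth per the series design, while the sample labels give 12 days, and nothing in the labels names an organ or says how many plants were pooled. Each of the 4 samples is a 2-colour array with exposed RNA in the red dye Cy5 and control RNA in the green dye Cy3, so that every log2 ratio below is exposed over control. The dyes were never swapped, so a dye preference of a probe and an effect of exposure cannot be told apart.

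N-hydroxypipecolic acid is a lysine-derived signal that accumulates in infected leaves and is needed for systemic acquired resistance, the heightened immunity of leaves that were not themselves infected. ALD1 is the aminotransferase that acts on lysine, SARD4 is the reductase that completes pipecolic acid, and FMO1 is the flavin-dependent monooxygenase that adds the hydroxyl group. UGT76B1 attaches glucose to N-hydroxypipecolic acid and to salicylic acid and thereby lowers the active pools. In infected leaves the genes are known to be induced together by the transcription factors SARD1 and CBP60g.

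Array 4 stood apart from the others. Its median gene spot read 1286 scanner units in the exposed channel and 575.5 in the control channel, against 336 to 373 and 292 to 362.5 on arrays 1 to 3. On array 4, 99.6% of gene spots were marked well above background in the exposed channel and 97.24% in the control channel. On arrays 1 to 3 these shares were 77.74 to 78.85% and 75.07 to 75.36%. Pearson's r between log2 ratios, computed across genes and therefore not over independent units, was 0.648 to 0.779 within the set of arrays 1 to 3 but 0.221 to 0.288 between array 4 and any of them. Arrays 1 to 3 differed from each other by about the noise between spots: on 50 probes spotted 5 times, the median SD of the log2 ratio between these arrays was 0.0469, where the spread of the spots within an array predicts 0.0506. Nothing in the labels says that the RNAs came from separate plants, so the p-values reflect only how far these arrays scatter, and that scatter may be technical. Arrays 1 and 2 lay on 1 slide and arrays 3 and 4 on another, and each slide was scanned in 1 run.

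Of the 4 pathway genes, 1 was called lower and 1 higher in exposed plants. FMO1 fell 1.695-fold (log2 ratio -0.76 ± 0.120 SE, n = 4, adjusted p = 0.0364) and SARD4 rose 1.35-fold (log2 ratio 0.44 ± 0.0706 SE, n = 4, adjusted p = 0.0368) in the limma fit across all 22690 tested genes. ALD1 (0.086 ± 0.0647 SE, adjusted p = 0.442) and UGT76B1 (0.20 ± 0.0713 SE, adjusted p = 0.158) did not pass the adjusted p threshold of 0.05. The 95% interval of the log2 ratio ran from -0.070 to 0.24 for ALD1 and from 0.026 to 0.37 for UGT76B1. Thus 2 of the 4 genes were called, 1 in each direction, where 3.4% of all tested genes were called, 1.58% higher and 1.82% lower. The calls of FMO1 and SARD4 were lost when array 1, 2 or 3 was left out, as was every other call among all genes (limma, 3494 to 3873 genes with an unadjusted p below 0.05), and 0 genes were called when arrays 1 to 3 were counted as 1 sample (1317 genes with an unadjusted p below 0.05).

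**Figure D1:**
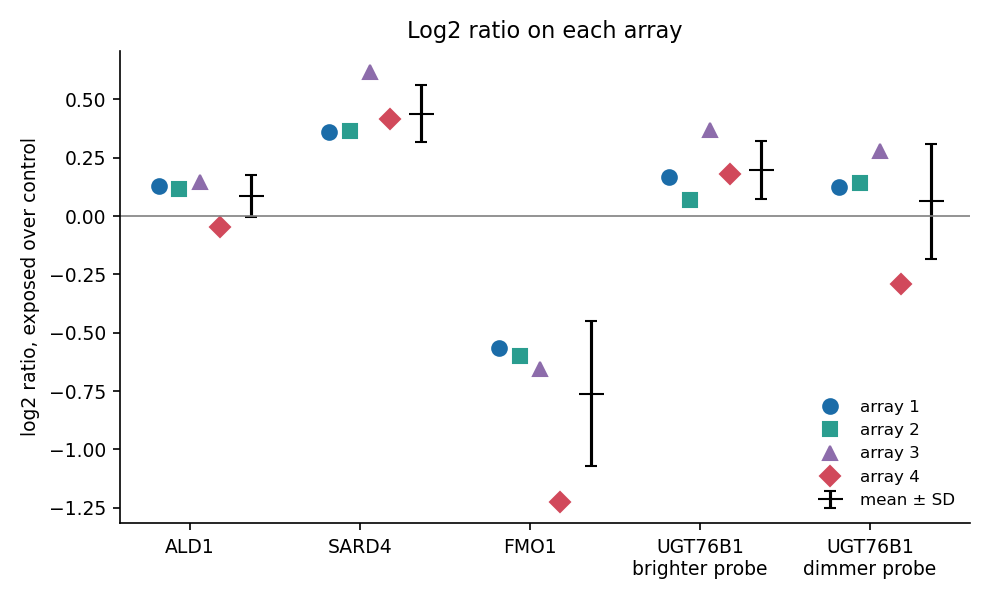
Log2 ratio of exposed over control (vertical axis) of each probe of the 4 genes on each array, with arrays 1 to 4 as points and the mean ± SD (n = 4) as bars. FMO1 lies below 0 on all 4 arrays and SARD4 above 0 on all 4, and array 4 is the lowest point for ALD1, FMO1 and the dimmer UGT76B1 probe.

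ALD1 starts the branch from lysine. Its spot read 171, 150.5, 168 and 609 scanner units in the exposed channel of arrays 1 to 4, against 163, 135.5, 156 and 262.5 in the control channel, over a local background of 51.5 to 59 units. It was therefore a dim probe, although marked well above background in both channels of every array. On array 4 nearly all gene spots carried that mark. The normalised log2 ratios were 0.13, 0.11, 0.14 and -0.046, so that arrays 1 to 3 lay close together just above 0 and array 4 just below it. Without array 4 the mean was 0.13 (adjusted p = 0.0974, limma).

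SARD4 encodes the reductase of the second step. Its spot read 3847, 3421, 3381 and 5525 units in the exposed channel, against 2673, 2097, 2039.5 and 2617 units in the control channel. The exposed channel was the higher one on every array. So it was for the median gene spot, at 373 against 362.5, 336 against 292, 344 against 341 and 1286 against 575.5 units. The log2 ratios were 0.36, 0.36, 0.62 and 0.42, with array 3 the highest. Among all tested genes this mean ranked 340th from the top. The rise was the same in size without array 4 (0.45, adjusted p = 8.46e-05, limma), in a fit that called 31.1% of all tested genes. Median centring in place of loess gave 0.45 with an adjusted p of 0.124 (limma, 4 arrays).

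FMO1 carries out the hydroxylation that gives the pathway its product. Its spot read 232.5, 212.5 and 233 units in the exposed channel of arrays 1 to 3, against 333, 289 and 364 units in the control channel. On array 4 it read 449 units in the exposed and 404 in the control channel, where the median gene spot was also more than 2 times as bright in the exposed as in the control channel. The log2 ratios were -0.56, -0.60, -0.66 and -1.22, below 0 on every array and lowest on array 4. Only 20 of the 22690 tested genes had a lower mean log2 ratio.

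The direction of FMO1 on array 4 rests on the scaling between dyes. Without any scaling, the background-subtracted log2 ratio of FMO1 was -0.69, -0.58 and -0.82 on arrays 1 to 3 and 0.16 on array 4, where the median of all tested genes was 0.83. Ranked among the 43803 gene spots within each channel, which needs no scaling, FMO1 stood at percentile 43.2, 43.2, 44.4 and 15.4 in the exposed channel, against 48.7, 49.8, 51.1 and 39.2 in the control channel. FMO1 thus ranked lower in exposed than in control RNA on all 4 arrays. On array 4 the other dim probes also ranked lower in exposed RNA. The dimmer UGT76B1 probe stood at 25.7 against 31.1 and ALD1 at 24.3 against 24.8. The bright probes ranked higher there, SARD4 at 86.8 against 83.1 and the brighter UGT76B1 probe at 87.3 against 86.0. The fall of FMO1 was called without array 4, where it was 1.52-fold (log2 ratio -0.61 ± 0.0583 SE, n = 3, adjusted p = 1.18e-06, limma). That fit called 31.1% of all tested genes, 16.8% higher and 14.3% lower. The log2 ratio of FMO1 as computed by the scanner software was -0.74, -0.87, -0.78 and -1.30, also below 0 on each array.

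**Figure D2:**
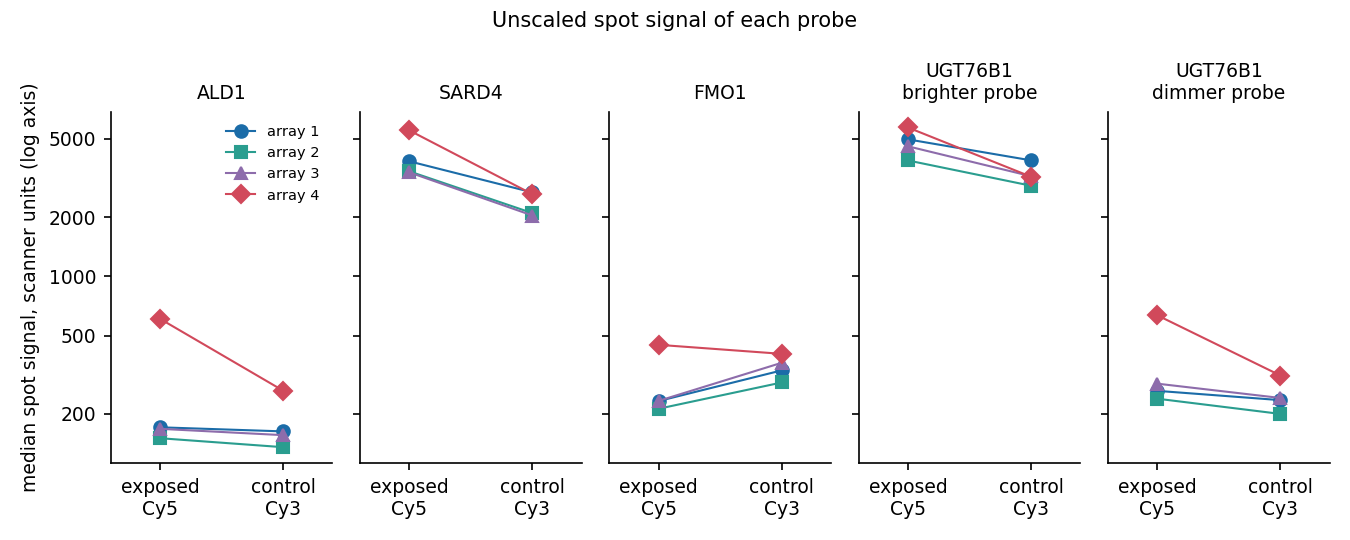
Median spot signal in scanner units (log axis) of each probe in the exposed Cy5 channel (left) and the control Cy3 channel (right), before any scaling, with a line joining the channels of 1 array. FMO1 slopes upward to the control side on arrays 1 to 3, SARD4 slopes downward on all 4 arrays, and array 4 reads higher in the exposed channel for all 5 probes.

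UGT76B1 lowers the active signal by attaching a sugar. Its brighter probe read 4974, 3886, 4586.5 and 5716 units in the exposed channel, against 3889.5, 2890, 3230 and 3210 in the control channel. Its log2 ratios after loess were 0.17, 0.071, 0.37 and 0.18, above 0 on all 4 arrays. With median centring they were 0.27, 0.29, 0.44 and -0.12, so that the sign on array 4 rests on the scaling. After loess the dimmer probe gave 0.12, 0.14, 0.28 and -0.29, with the opposite sign on array 4 only. Its mean was 0.063 ± 0.246 (SD, n = 4). The mean over both probes was 0.13 (adjusted p = 0.325, limma). Without array 4 the brighter probe was called (0.20, adjusted p = 0.025, limma), in a fit that called 31.1% of all tested genes, 16.8% higher and 14.3% lower. By that fit 3 of the 4 genes were called.

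After loess, the dim probes were those that moved most on array 4. Array 4 differed from the mean of arrays 1 to 3 by -0.62 for FMO1, -0.17 for ALD1 and -0.47 for the dimmer UGT76B1 probe, but by -0.030 for SARD4 and -0.022 for the brighter UGT76B1 probe. Among genes within 0.5 of FMO1 in log2 intensity, the SD of the log2 ratios was 0.383 on array 4, where their median was -0.16, and 0.197 to 0.239 on the other arrays. With median centring in place of loess, bright probes moved as well. SARD4 then read 0.13 on array 4, against 0.44, 0.57 and 0.66 on arrays 1 to 3. The brighter UGT76B1 probe read -0.12, against 0.27, 0.29 and 0.44. FMO1 read -0.86, against -0.57, -0.57 and -0.67, and ALD1 read 0.32, against 0.098, 0.050 and 0.12. The part of brightness and of scaling in the values of array 4 was not tested. Within slide 1 (arrays 1 and 2) the mean log2 ratios after loess were 0.12 for ALD1, 0.36 for SARD4, -0.58 for FMO1 and 0.12 for UGT76B1, and within slide 2 they were 0.049, 0.52, -0.94 and 0.27.

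**Figure D3:**
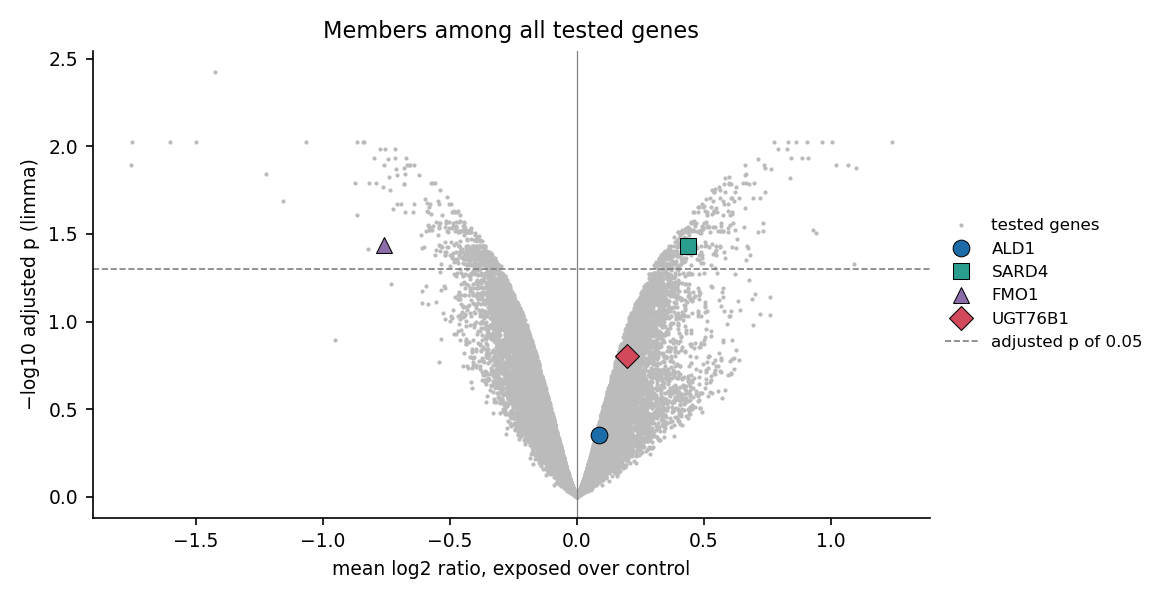
Mean log2 ratio of exposed over control (horizontal axis) against −log10 of the limma adjusted p (vertical axis) for the 22690 tested genes, with the 4 pathway genes as large symbols and the threshold of 0.05 as a dashed line. FMO1 lies far to the left among the called genes, SARD4 just above the threshold on the right, and UGT76B1 and ALD1 below it.

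The genes were also set against each other within each array. SARD4 exceeded FMO1 by 1.20 ± 0.333 on the log2 scale (SD, n = 4), and on each array the difference lay between 0.92 and 1.64. UGT76B1 exceeded FMO1 by 0.96 ± 0.336 and ALD1 exceeded FMO1 by 0.85 ± 0.226, each on 4 of 4 arrays. SARD4 exceeded ALD1 by 0.35 ± 0.132 and UGT76B1 by 0.24 ± 0.0412, also on 4 of 4 arrays. UGT76B1 exceeded ALD1 by 0.11 ± 0.136 on 3 of 4 arrays, and that difference was -0.084 when taken from the scanner software. The exact sign-flip permutation test (two-sided) gave the first 5 of these 6 pairs the smallest p that 4 arrays allow, which is above 0.05, with an adjusted p of 0.15 (Benjamini-Hochberg), and the last pair 0.375. The order by mean log2 ratio was SARD4, UGT76B1, ALD1 and FMO1, in which the neighbours UGT76B1 and ALD1 differed by less than the SD of their difference.

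Genes known to act around the pathway were read from 6 lists, 78 of whose 80 members were tested. In all 5 were called, 3 higher and 2 lower in exposed plants, or 6.41% against 3.4% of all tested genes, and the median log2 ratio was 0.032 against -0.0046. Without array 4 these shares were 38.5% and 31.1%. Single lists had 0 to 2 called genes with 4 arrays. These are to be read beside the 1.58% of all tested genes called higher and the 1.82% called lower.

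Of 12 transcriptional activators, repressors and kinases upstream of the pathway, 1 rose and 0 fell, with a median log2 ratio of 0.047. The gene called was SARD1, the direct activator of the pathway genes, which rose 1.54-fold (0.62 ± 0.0692 SE, adjusted p = 0.0183, limma), at 0.55, 0.54, 0.79 and 0.61 on the 4 arrays. SARD1 was thus higher on the same arrays on which FMO1 was lower. Its partner CBP60G was at 0.53, 0.61 and 0.60 on arrays 1 to 3 and at -0.12 on array 4, and was not called (adjusted p = 0.13). The repressor genes CAMTA1 (listed as EICBP.B, -0.33, adjusted p = 0.0917) and CAMTA2 (AT5G64220, -0.29, adjusted p = 0.0953) were below 0 on all 4 arrays and were not called. The repressor gene CAMTA3 (listed as SR1) did not share this, at 0.19, 0.0038, 0.21 and -0.092 on the 4 arrays. Its mean was 0.079 (adjusted p = 0.545, limma), with a second probe at -0.16.

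Of 10 genes of the EDS1 and NPR signalling modules, 1 rose and 0 fell, with a median of 0.099. PAD4, a lipase-like partner of EDS1 in immunity, rose 1.51-fold (0.60 ± 0.0597 SE, adjusted p = 0.0149, limma), but another of its 3 probes gave 0.29 and the mean over its probes was not called (0.31, adjusted p = 0.0811). SAG101, another EDS1 partner, was not called (0.29, adjusted p = 0.0725, limma), and the mean over its 3 probes was 0.17 (adjusted p = 0.142). The helper receptor gene ADR1-L1 (0.22, adjusted p = 0.0987, with a second probe at -0.0027) was not called either. The receptor genes of salicylic acid lay at -0.054 for NPR1, -0.033 for NPR3 and -0.25 for NPR4, none of them called.

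Of 10 genes that make or turn over salicylic acid, the parallel immune signal, 1 rose and 1 fell, with a median of 0.13. EDS5, the chloroplast exporter of the precursor isochorismate, rose 1.29-fold (0.36 ± 0.0664 SE, adjusted p = 0.0438, limma), with a second probe at -0.037 and 0.16 as the mean over its probes (adjusted p = 0.187). ICS2, the minor isochorismate synthase, fell 1.29-fold (-0.37 ± 0.0702 SE, adjusted p = 0.0471, limma). The main isochorismate synthase ICS1, listed as EDS16, was at 0.45, 0.25 and 0.48 on arrays 1 to 3 and at -0.31 on array 4 and was not called (adjusted p = 0.366). DMR6, a salicylic acid hydroxylase, was at 0.30 (adjusted p = 0.13). No gene of this list was called under median centring, the scanner software's log ratio, the smaller normexp offset or no filter on dim probes.

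Lysine is the substrate of ALD1. Of 18 genes of lysine synthesis, breakdown and transport and their close relatives, 0 rose and 1 fell, with a median of -0.059. AK3, an aspartate kinase at the entry to the pathway, fell 1.33-fold (-0.41 ± 0.0671 SE, adjusted p = 0.0383, limma), a call that was lost under median centring (-0.37, adjusted p = 0.252) and without the filter on dim probes (adjusted p = 0.0557). The bifunctional kinase gene AK-HSDH II was at -0.30 (adjusted p = 0.0866) and CRR1, a reductase-like gene of chloroplast electron transport, at -0.22 (adjusted p = 0.138). AGD2, the aminotransferase most like ALD1, which works in lysine synthesis, was at 0.016, -0.090, 0.054 and -0.051 on the 4 arrays (adjusted p = 0.879). DHDPS1 and DHDPS2, the enzymes that commit carbon to lysine, were at 0.068 and 0.016.

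The relatives of UGT76B1 and of FMO1 in their gene families had 0 called members. Among 18 UGT76 glucosyltransferase genes 5 had an unadjusted p below 0.05, where 24.8% of all tested genes had one, and the log2 ratio was above 0 for 16, where it was for 49% of all tested genes, with a median of 0.0998. The lowest p values belonged to AT3G46690 (0.31, adjusted p = 0.0528), UGT76C1, an enzyme that glucosylates cytokinins (0.21, adjusted p = 0.139), and UGT76E2 (0.24, adjusted p = 0.146). Among 10 tested flavin monooxygenase genes 4 had an unadjusted p below 0.05, against the same 24.8% of all tested genes, and 7 were below 0, where 51% of all tested genes were, with a median of -0.15. The lowest p values belonged here to AT5G61290 (-0.34, adjusted p = 0.0669), FMO GS-OX1, which oxidises aliphatic glucosinolates (-0.18, adjusted p = 0.149), and FMO (AT1G12200, -0.16, adjusted p = 0.171). The fall of FMO1 was larger than that of every tested relative. AT5G45180 and AT1G12130 were well above background on at most 1 array in either channel and were not tested.

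**Figure D4:**
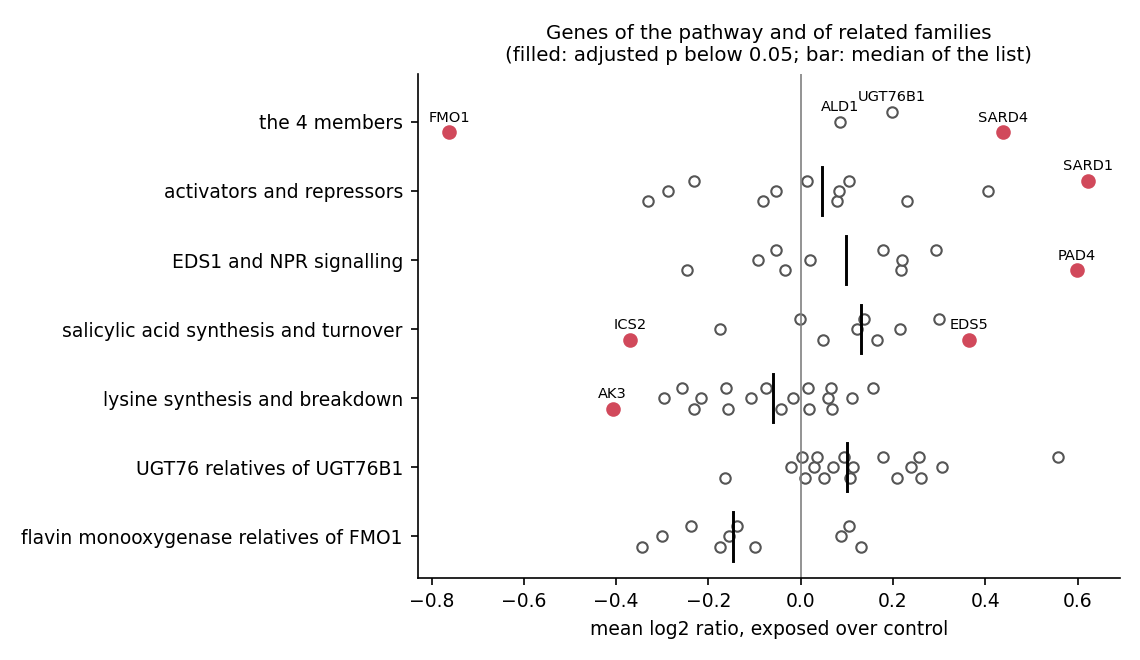
Mean log2 ratio of exposed over control (horizontal axis) of the 4 pathway genes and of the tested genes of the 6 lists, with filled points for an adjusted p below 0.05 and a vertical bar for the median of a list. FMO1 at -0.76 is the lowest point, and SARD1 (0.62), PAD4 (0.60) and SARD4 (0.44) are the highest of the called ones.

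By Euclidean distance over the 4 array log2 ratios, the genes nearest to FMO1 were HAC12, a histone acetyltransferase gene (distance 0.21), AT5G31909 (0.247) and JRG21, a jasmonate-regulated oxygenase gene (0.263), against a median distance of 1.61 to all genes. No gene lay within 0.2 of FMO1. These distances rest on the brightest probe of a gene, and the mean over all tested probes was -0.33 for HAC12, against -0.72 on its brightest probe. The nearest to SARD4 were ERD15, a dehydration-responsive gene (0.0586), the laccase gene LAC7 (0.0712) and AT3G22570 (0.0734), with 88 genes within 0.2. The mean over the probes of ERD15 was 0.15 (adjusted p = 0.219, limma), against 0.44 on its brightest probe. ALD1 and UGT76B1 had 1906 and 676 genes within 0.2, so that their nearest genes say little. They were PAP1, AT2G19790 and AT1G25083 for ALD1 (0.0239 to 0.027) and AT2G15160, AT5G23510 and AT5G51280 for UGT76B1 (0.0448 to 0.0491).

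Shoot and root RNA were both present. The shoot genes RBCS1A, RBCS1B and CAB1 and the root genes PYK10, CASP1 and PRP3 were well above background in both channels of all 4 arrays. RBCS1A (0.49), CAB1 (0.50), PYK10 (0.61) and PRP3 (0.44) rose, or 2 of 3 in each list, although a second probe of RBCS1A gave 0.10, and RBCS1B (0.19) and CASP1 (0.27) were not called. The part of organ proportions in the values of the pathway genes was not tested, and in these bulk samples fewer cells that express a gene and less RNA per cell cannot be told apart.

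**Figure D5:**
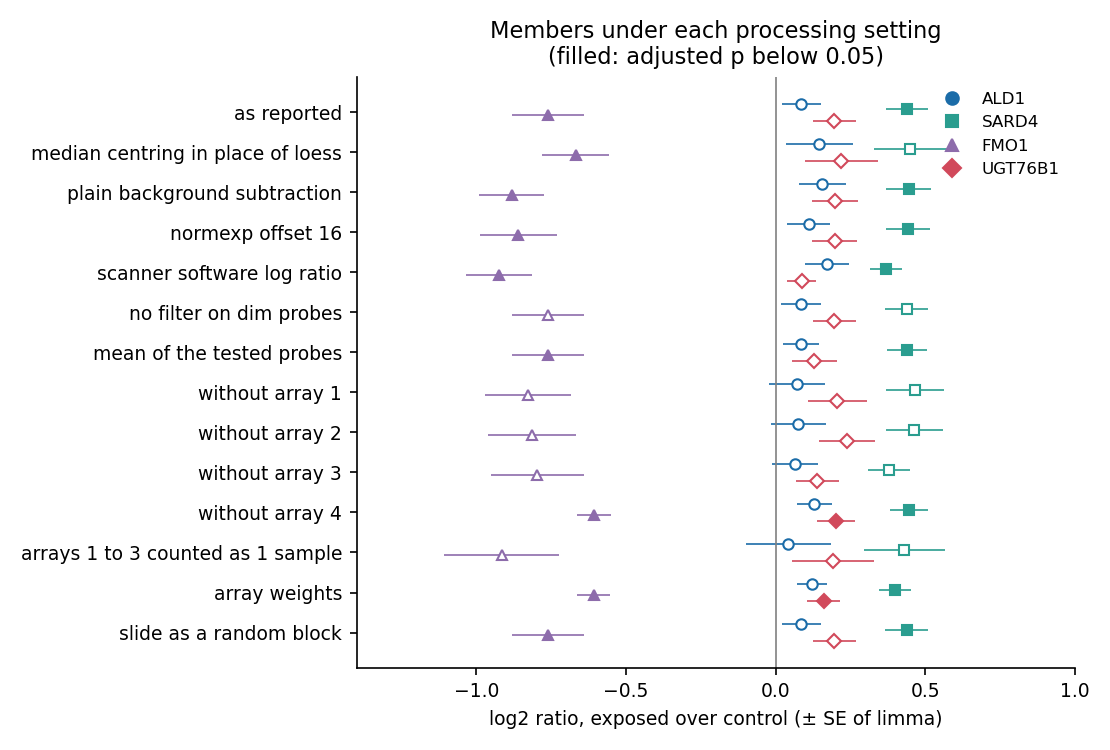
Log2 ratio of exposed over control (horizontal axis, ± SE of limma) of the 4 pathway genes under each processing setting (rows), with filled symbols for an adjusted p below 0.05. FMO1 stays between -0.92 and -0.61 and SARD4 between 0.37 and 0.47 in all rows, while the fill changes with the arrays included.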

How the data were processed

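The authors deposited 1 scanner file per array with linear spot intensity, made with Agilent Feature Extraction (version 11.5.1.1 per the file headers, 8.5.1.1 per the submitters' processing notes). They also hold the software's deposited log10 ratio of Cy5 over Cy3, its p-value and spot quality marks, as named per the file headers. The series matrix, deposited as log2 of exposed over control per the labels, had column medians of -0.042, -3.17, -3.17 and -3.19. Within a tolerance of 0.001 array 1 equalled log2 of Cy5 over Cy3 at all 45220 spots, but arrays 2 to 4 held log2 of the Cy3 error divided by Cy5 at 45219 or more spots, so the matrix was not used.

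In R 4.3.3 with limma 3.58.1, median signals were background-corrected with normexp (offset 50) and normalised by loess within each array, with control and outlier spots at weight 0 (outliers left out). Testing required that Cy5, or else Cy3, read the probe well above background on at least 3 arrays, and the brightest such probe stood for its gene. All 4 pathway genes passed this filter, and all 5 of their probes were well above background in both channels of every array. No outlier or saturated spot was among them. Log2 ratios of 22690 genes were tested against 0 with lmFit and eBayes, two-sided, with Benjamini-Hochberg adjustment over all genes. The fit was tested on simulated data.

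The pathway genes, lists and tests were chosen with earlier results of these data known. Named are the 4 genes and, for each, the 3 nearest genes by array pattern. From each list the called genes are named or, where fewer than 3 were called, the 3 with the lowest p. A few genes of known role were added after their values were seen (CBP60G, CAMTA3, ICS1, the NPR genes, AGD2 and the DHDPS genes). Alternatives were median centring, plain subtraction, offset 16, the software's ratio, no filter, probe means, each array left out, arrays 1 to 3 as 1 sample, array weights and, added after seeing the files, the slide as a block and each UGT76B1 probe. Symbols were taken from NCBI's TAIR10.1 gene table, except SARD4, which it lists by locus. Coordinates are left out because the scanner files follow an older annotation.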

Additional observations from a re-analysis of the deposited data

Results flagged for a closer look

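In 8 of the 35 values checked, 1 array lay far from the other 3 by Dixon's criterion. Chance alone meets it in about 1 of 20 independent groups. The values checked include the genes nearest in pattern to each pathway gene, which copy its outlying array by choice. The count of 8 therefore cannot be set against that rate. In 7 of the 8 it was array 4. FMO1 read -1.22 on array 4, against -0.66 to -0.56 on the others, and ALD1 read -0.046, against 0.11 to 0.14. AK-HSDH II read -0.066, against -0.38 to -0.36. HAC12, which was chosen as the gene nearest in pattern to FMO1, read -1.02, against -0.65 to -0.58. The genes nearest to ALD1 share its low array 4 by the way they were chosen, with PAP1 at -0.044, AT2G19790 at -0.054 and AT1G25083 at -0.068, against 0.099 to 0.14 on the other arrays. AT3G22570 stood apart on array 3, at 0.57 against 0.37 to 0.40. All these are values after loess, the only ones checked. With median centring ALD1 was highest on array 4, at 0.32 against 0.050 to 0.12. FMO1 was then at -0.86 on array 4, against -0.67 to -0.57.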

How the results depend on the processing

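Under every alternative tried FMO1 stayed below 0 and the brightest probes of SARD4, UGT76B1 and ALD1 stayed above 0 in the mean, but the calls moved. Across the fits that left out 1 array, FMO1 ranged from -0.83 to -0.61, SARD4 from 0.38 to 0.465 and UGT76B1 from 0.14 to 0.24. The called pathway genes ranged from 0 to 3 of 4, and all genes from 0 to 7054 of 22690, or up to 31.1%. The range was 0 to 4 of 12 for the activators, 0 to 4 of 10 for the EDS1 list and 0 to 6 of 10 for the salicylic acid list. It was 0 to 5 of 18 for the lysine list, 0 to 8 of 18 for the UGT76 list and 0 to 3 of 10 for the flavin monooxygenase list. The highest count was always without array 4. With arrays 1 to 3 as 1 sample FMO1 was at -0.92 and SARD4 at 0.43 (adjusted p = 0.633 each), and 0 genes were called in the pathway, in these 6 lists and over all genes. Array weights (0.161 for array 4, 0.922 to 2.83 for the others) called UGT76B1 (0.16, adjusted p = 0.033) and 8031 of all 22690 genes. In the lists, in the order above, they called 6 of 12, 4 of 10, 8 of 10, 6 of 18, 9 of 18 and 5 of 10 genes. Without the filter on dim probes 29030 genes were tested. FMO1 (-0.76, adjusted p = 0.0512, limma) and SARD4 (0.44, adjusted p = 0.0537) missed the threshold there. That fit called 0 pathway genes, 292 genes in all and 0 salicylic acid and 0 lysine genes. Median centring left SARD4 at 0.45 (adjusted p = 0.124), 1 pathway gene, 216 genes in all and 0 salicylic acid and 0 lysine genes. The split of 358 higher and 414 lower was 166 and 50 there and 657 and 488 with plain subtraction. The salicylic acid list had 0 called genes with offset 16 and by the scanner software, and 1 with probe means. Probe means gave 0 in the EDS1 list, 2 in the lysine list and 1 in the UGT76 list, and plain subtraction and the software's ratio gave 1 in the UGT76 list. By the software's ratio UGT76B1 minus ALD1 (-0.084) and AT5G51280 (-0.022) changed sign. Except where an alternative's construction shows it, the cause was not tested. The slide as a random block changed no call of the pathway genes. No paired analysis was possible because the series has 1 group, and each log2 ratio already pairs the exposed and control RNA of 1 array. The spots of FMO1 and ALD1 were dim, and plain subtraction and offset 16 put FMO1 at -0.88 and -0.86 with its call kept (adjusted p = 0.0251 and 0.0359).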

Other observations

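Protein-coding genes next to the pathway genes in the gene table were read where tested. SERK5, which precedes ALD1, was at a log2 ratio of 2e-04 (adjusted p = 1, limma). XYP2, which follows ALD1, was at a log2 ratio of 0.15 (adjusted p = 0.223, limma), and AT5G52820, which follows SARD4, was at 0.18 (adjusted p = 0.152). AT1G19240, which precedes FMO1, was at -0.052 (adjusted p = 0.777), and PIRL9, which precedes UGT76B1, was at -0.048 (adjusted p = 0.757). None of these neighbours was called.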
